A study of Mus musculus with 6 samples.

Results

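The mRNA levels of 10 genes for the storage, uptake, export and sensing of iron were compared between 2 mouse cell lines: Fth1, Ftl1, Tfrc, Steap3, Slc11a2, Slc40a1, Aco1, Ireb2, Ncoa4 and Hmox1. These 10 genes were taken by name from the 23284 genes of the count table, and all 10 of 10 had enough counts to be tested. They were selected on the counts of these same libraries, with the difference between MV+ and RAG already known, so their own values are given as a description. Whether a member passed the threshold used for all genes is stated to place it among them and supports nothing, and no p-value is given for a member. RNA-seq was performed on untreated cultures of MV+, lens epithelial cells that the study derives from a wild-type C57BL6 mouse and calls Pax6-ON, and of RAG, a renal adenocarcinoma line of BALB/c origin that it calls Pax6-OFF, with 3 libraries per line from separate flasks. Each cell type is represented by 1 line, so that tissue, strain and tumor origin differ together between the groups and cannot be told apart, and the study states that the lines were not authenticated.

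Ferritin is a hollow shell built of heavy chains (Fth1), which oxidize iron, and light chains (Ftl1), which help to mineralize it, and in this shell cells hold iron that is not in use. Iron bound to transferrin enters through the transferrin receptor (Tfrc), is reduced in endosomes by Steap3 and crosses into the cytoplasm through Slc11a2, whereas ferroportin (Slc40a1) is the known exporter. When iron is scarce, the regulatory proteins encoded by Aco1 and Ireb2 bind hairpins called iron responsive elements, which blocks translation when the hairpin lies in the 5′ UTR of an mRNA and protects the mRNA from decay when it lies in the 3′ UTR. Ncoa4 carries ferritin to lysosomes for breakdown, and Hmox1 releases iron from heme. In the kidney, tubule cells reclaim iron from the filtrate, and lens cells hold iron in ferritin.

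The hairpins of the members that matched a fixed pattern are shown because this control acts through hairpins of this kind. They were searched for as an unpaired C, 5 paired bases, the loop CAGTGN with its last base A, C or T, and at least 4 of 5 pairs in the lower stem, in the sense strand of annotated UTRs. Each is printed from the reference genome (mm9), 5′ to 3′ on the strand of the gene, with the 6 bases of the loop in capitals.
Fth1, 5′ UTR, chr19:10057221-10057250, plus strand: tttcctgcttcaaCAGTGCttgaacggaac
Ftl1, 5′ UTR, chr7:52715149-52715178, minus strand: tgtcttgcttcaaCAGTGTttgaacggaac
Slc40a1, 5′ UTR, chr1:45982310-45982339, minus strand: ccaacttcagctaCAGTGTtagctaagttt
Tfrc, 3′ UTR, chr16:32631304-32631333, plus strand: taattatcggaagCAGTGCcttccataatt
Tfrc, 3′ UTR, chr16:32631683-32631712, plus strand: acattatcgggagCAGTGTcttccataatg
Tfrc, 3′ UTR, chr16:32631748-32631777, plus strand: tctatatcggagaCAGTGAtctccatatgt
Tfrc, 3′ UTR, chr16:32631795-32631824, plus strand: taattatcgggaaCAGTGTttcccataatt
Such a hairpin was found in the 5′ UTR of 7 of 19573 genes (0.0358%), which include Fth1, Ftl1, Slc40a1 and Alas2, the erythroid enzyme that starts heme synthesis. It was found in the 3′ UTR of 18 of 19815 genes (0.0908%), and Tfrc held 4 copies. A match is a description of the letters and not evidence of binding. Hairpins that depart from these letters were not searched for, so a member without a match, such as Slc11a2, may still hold one, and Tfrc may hold more than 4.

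The libraries held between 17413045 and 22428230 counts in MV+ and between 28252165 and 43168532 in RAG, and the ribosomal RNA precursor Rn45s took between 12.4% and 20.1% of a RAG library, a range that held the 3 MV+ libraries. Pax6 had 3611 counts over the MV+ libraries and 4 over the RAG libraries. Of the lens epithelium markers, Sox2 and Six3 had 3429 and 1811 counts in MV+ and 0 each in RAG, whereas Foxe3 was at 0 in both lines, and Maf (1633 counts in MV+ and 7404 in RAG) and Cryab (2238 and 7409) were lower in MV+. The 12 lens markers summed to between 189 and 229.9 CPM in MV+ and between 144 and 158 CPM in RAG. Of the kidney tubule markers, Pax2 (0 counts in MV+ and 2239 in RAG), Pax8 (2 and 2686) and Cdh16 (1 and 13217) followed the labels, but Epcam had 9 counts in MV+ and 0 in RAG, Umod and Slc34a1 were at 0 in both lines, and Lrp2 had 3276 counts in MV+ and 7 in RAG. Cells with a special iron economy were represented by low levels, as the 10 erythroid markers summed to between 4.57 and 5.84 CPM in MV+ and between 0.697 and 1.42 CPM in RAG, with Hbb-b1 and Hba-a1 at 0 in both. The 11 macrophage markers summed to between 2.34 and 2.97 CPM in MV+ and between 96.2 and 111 CPM in RAG, mostly through the lysosomal gene Cd68 (121 counts in MV+ and 9640 in RAG), and Cd163 (1 and 374) and Lyz2 (1 and 66) were lower in MV+ too, while Emr1, Marco, Vsig4 and C1qa were at 0 in both. The 15 islet markers summed to between 5.33 and 16.2 CPM in MV+ and between 3.59 and 4.53 CPM in RAG. Among them, Ins2 had 53, 47 and 23 counts and Iapp 57, 32 and 4 in MV+ replicates 1, 2 and 3, and both had 0 in RAG. Mafa (36 counts in MV+ and 357 in RAG), Chgb (8 and 27) and Slc2a2 (0 and 3) were lower in MV+. The 7 hepatocyte markers summed to at most 0.143 CPM in MV+ and 0.0232 CPM in RAG. The study also performed RNA-seq on a mouse insulinoma line that it calls Pax6-HIGH and that is not among these libraries. The source of the islet transcripts and the part of these cell types in the results below were not tested.

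MV+ cells had far less ferritin mRNA than RAG cells. Fth1 (chr19:10057193-10059582) had 426, 390.1 and 388 CPM, the count scaled by TMM-adjusted library size, in the MV+ libraries, against 4849, 4776 and 5122 CPM in the RAG libraries. The lines did not overlap, and the log2 fold change, MV+ minus RAG throughout, was -3.61 ± 0.07 (SE, n = 3 per line), which is 12.2-fold lower in MV+. Ftl1 (chr7:52713314-52715256) had 212, 193 and 218 CPM in MV+ and 1339.7, 1266 and 1291 CPM in RAG. It also separated the lines, with a log2 fold change of -2.64 ± 0.07, or 6.25-fold lower in MV+. FPKM divides the count by exon length and library total. Ranked by mean FPKM among all 23284 genes of the table, Fth1 was 65th in MV+ and 6th in RAG, and Ftl1 was 189th and 19th. These genes include RNAs other than mRNA, such as Rn45s, so the place among mRNAs is not known. Together the subunits made up 0.0648% ± 0.00223 of each MV+ library and 0.584% ± 0.0481 of each RAG library (SD, n = 3 each). Because the libraries are bulk, fewer expressing cells and less RNA per cell cannot be told apart.

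**Figure D1:**
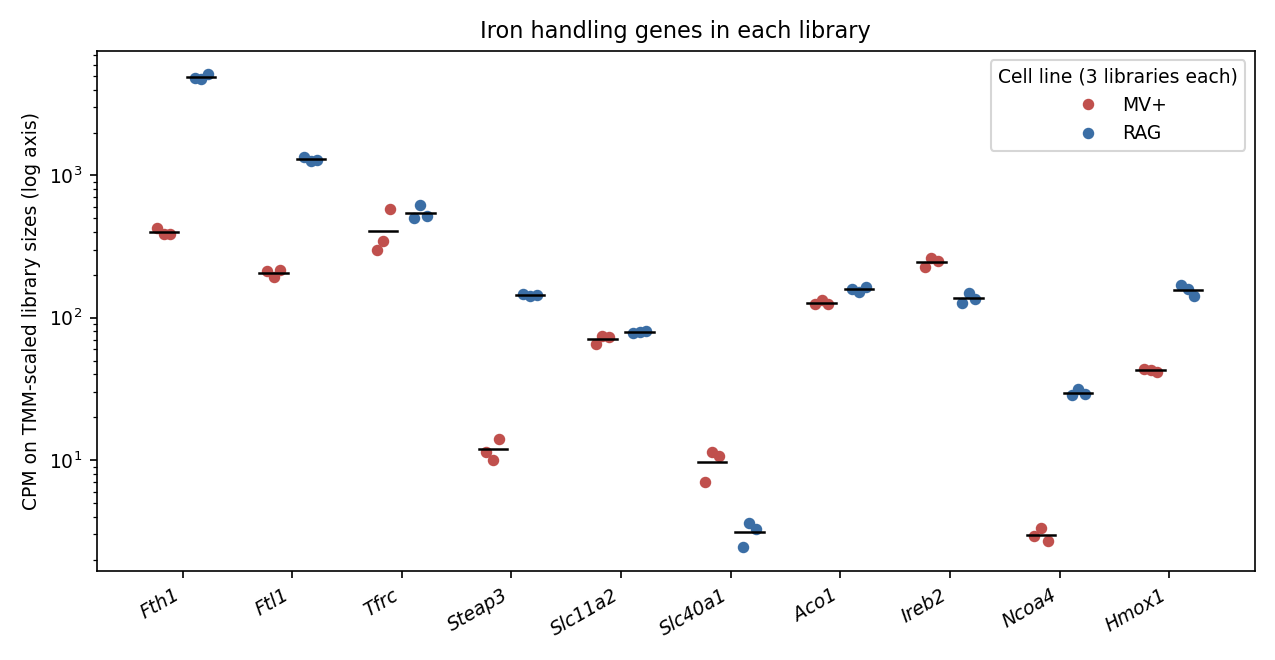
CPM of the 10 genes (log axis) in each of the 3 MV+ libraries (red, left of each pair) and the 3 RAG libraries (blue, right), with a line at the mean. Fth1 lies between 388 and 426 CPM in MV+ and between 4776 and 5122 CPM in RAG, whereas the libraries of Tfrc overlap.

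The ferritin genes have copies elsewhere in the genome, which bears on their levels. Reads that align to several places were not counted, so the exons of each gene were cut into all windows of 50 bases, the read length, and each window was looked up in the mm9 genome. For Ftl1, 688 of 921 windows (74.7%) had an exact copy elsewhere, and only 233 were found once. The bins with the most copies held the annotated genes or pseudogenes Gm10116 (chr13:74540001-74550000, 687 windows), Gm15590 (chr17:6130001-6140000, 587), Ftl2 (chr4:125180001-125190000, 543) and Gm12164 (chr11:45640001-45650000, 308), the coordinates giving the 10 kb bin, while chr7:105240001-105250000 (81 windows) held no annotated gene other than Myo7a. For Fth1 the share was 8.7% (71 of 817 windows), with 58 of them at the pseudogene Gm6977 (chrX:87990001-88000000). For Ncoa4 it was 90.6% (3195 of 3528 windows), at the pseudogene Gm6768 (chr12:120490001-120510000). The share was at most 1.0% in the other 7 genes. The counts of Ftl1 and Ncoa4 therefore come from small parts of their exons, and whether strain differences within these parts or reads from the copies moved the counts of one line was not tested. Fthl17, the 1 other row named as a ferritin heavy chain, had 0 counts in every library.

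**Figure D2:**
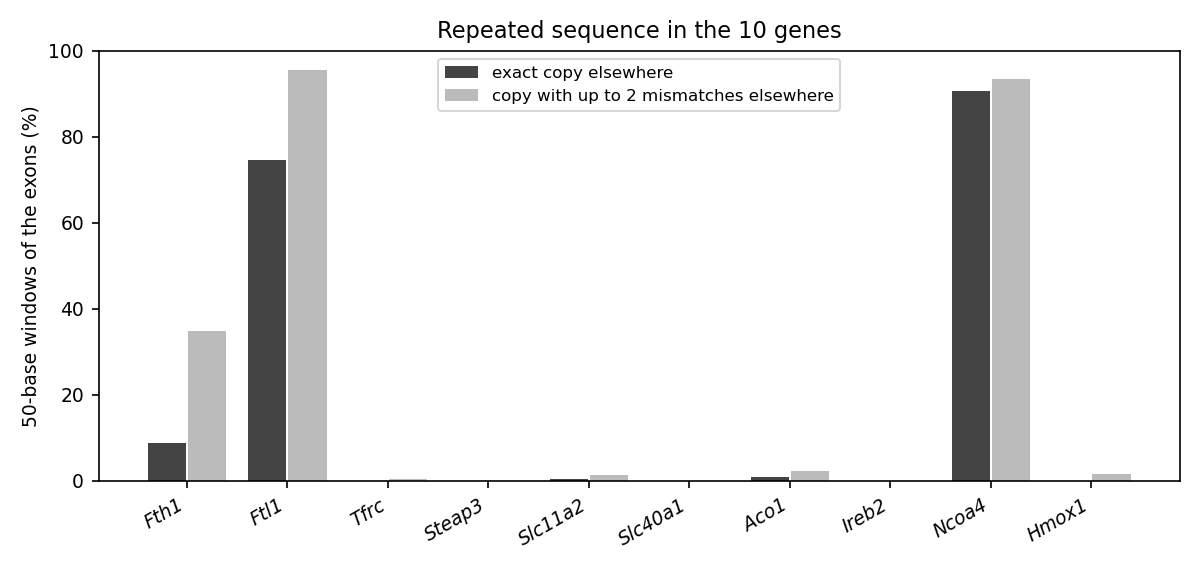
Share of the 50-base windows of each gene's exons (%) with a copy elsewhere in the mm9 genome, exact (dark bars) or with up to 2 mismatches (light bars). Ncoa4 (90.6%) and Ftl1 (74.7%) stand far above Fth1 (8.7%) and the other 7 genes (at most 1.0%) for exact copies.

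The balance of the subunits differed between the lines as well. By FPKM, the Fth1 level was 2.17 ± 0.153 times that of Ftl1 in MV+ and 4.24 ± 0.194 times in RAG (SD, n = 3 each), with 1.99 to 2.26 over the MV+ libraries and 4.05 to 4.44 over the RAG libraries. When counts were divided by the number of windows found once in place of exon length, a measure added after seeing the data, the ratio was 0.605 ± 0.0427 in MV+ and 1.18 ± 0.0542 in RAG. Another length that is the same in both lines multiplies the ratio by the same number in every library, so it cannot change the comparison of the lines. Whether the countable part of Ftl1 differed between the lines was not tested. In MV+ the subunit with the higher level was Fth1 by FPKM and Ftl1 per window found once. The ratio was formed from the same values that chose the genes and is a description.

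**Figure D3:**
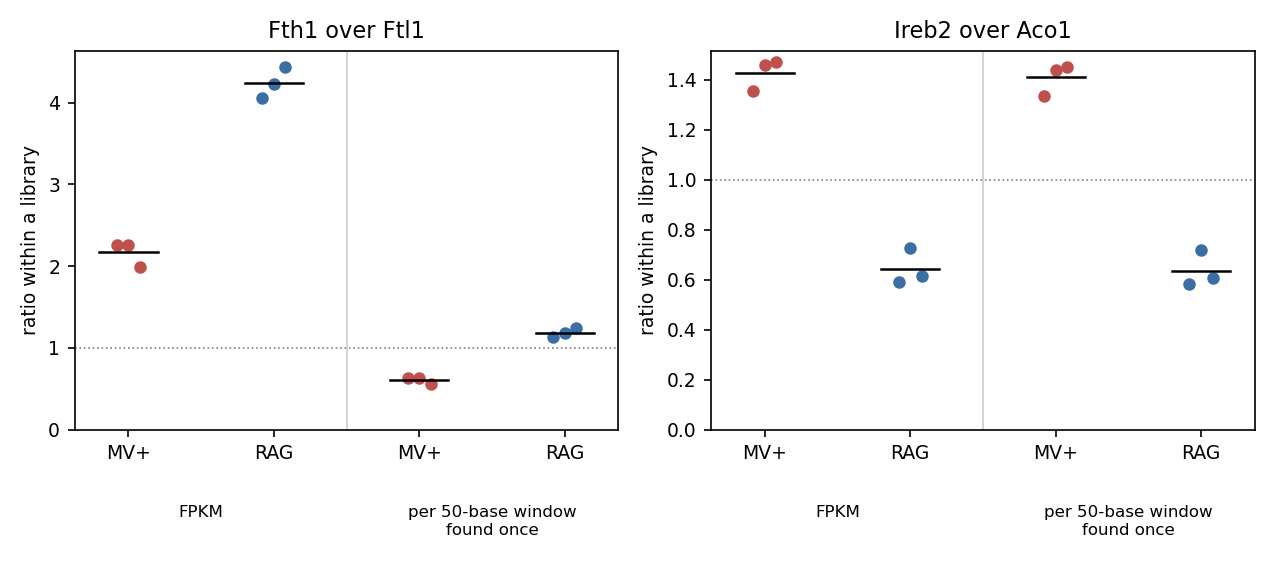
Ratio of Fth1 to Ftl1 (left) and of Ireb2 to Aco1 (right) within each library, MV+ in red and RAG in blue, from FPKM and from counts per 50-base window found once, with a line at the mean and a dotted line at equal levels. The Fth1 ratio is 0.605 in MV+ and 1.18 in RAG per window found once, against 2.17 and 4.24 by FPKM. The Ireb2 ratio hardly moves, as at most 1.0% of the windows of Ireb2 and Aco1 have an exact copy elsewhere.

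The 250 bases before the annotated starts of the ferritin genes are shown because both genes were lower in MV+. They are from RefSeq (GRCm38.p6, a later build than that of the counts), 5′ to 3′ on the strand of the gene, with GGGCGG or its reverse complement (the GC box bound by Sp1 family factors) in capitals.
Fth1, chr19:9982396-9982645, plus strand: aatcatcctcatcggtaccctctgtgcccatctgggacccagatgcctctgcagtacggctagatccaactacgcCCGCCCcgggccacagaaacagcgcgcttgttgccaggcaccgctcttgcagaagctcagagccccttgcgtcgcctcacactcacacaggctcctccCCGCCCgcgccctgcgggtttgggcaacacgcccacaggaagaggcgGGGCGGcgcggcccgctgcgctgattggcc
Ftl1, chr7:45459887-45460136, minus strand: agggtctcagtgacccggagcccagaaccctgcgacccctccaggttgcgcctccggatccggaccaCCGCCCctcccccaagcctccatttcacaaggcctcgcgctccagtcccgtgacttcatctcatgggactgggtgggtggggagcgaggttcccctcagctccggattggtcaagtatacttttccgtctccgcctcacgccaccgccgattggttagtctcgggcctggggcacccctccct
RefSeq gives 2 such windows for Fth1, and the one shown starts nearest to the counted first exon. It held 3 GC boxes, starting 175, 77 and 30 bases before the RefSeq start, the other window of Fth1 (chr19:9980350-9980649) held 0, and that of Ftl1 held 1, starting 183 bases before its start. Over both strands, GGGCGG was present in 35.7% of 32851 promoter windows of 300 bases, the 250 shown and the next 50. TGACNNNGC, the core of the antioxidant response element bound by Nfe2l2, was found in 12.4% of all such windows and CACGTG, the E-box bound by Myc and Usf factors, in 7.15%, and neither was found in those of Fth1 and Ftl1. Sites outside these windows were not searched for, so either gene may hold such a site elsewhere. Promoter entries matched 7 of the 10 genes.

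Of the 3 uptake genes, Steap3 was much lower in MV+, while Tfrc overlapped between the lines and the value of Slc11a2 rested on the scaling. Tfrc (chr16:32608982-32632880) had 298, 344 and 578 CPM in MV+ and 501, 616 and 518 CPM in RAG. MV+ replicate 3 lay within the range of RAG and the other MV+ libraries lay below it, so the lines overlapped and the log2 fold change was -0.42 ± 0.30, not called. Without MV+ replicate 3 it was -0.76 and was called, and with MV+ replicates 1 and 2 left out together it was 0.09. The coefficient of variation of Tfrc was 37.0% in MV+, the highest of the 10 genes, against 11.4% in RAG. By FPKM the level of Fth1 was 6.12 ± 2.17 times that of Tfrc in MV+ and 51.7 ± 6.70 times in RAG (SD, n = 3 each).

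Steap3 (chr1:122122993-122167659), the ferrireductase of the endosome, showed the largest difference of these 3. It had 11.5, 10.0 and 14.1 CPM in MV+ and 147, 141 and 145 CPM in RAG, a log2 fold change of -3.60 ± 0.10, or 12.1-fold lower in MV+. Slc11a2 (chr15:100218331-100253486), the divalent metal transporter, had 65.7, 74.9 and 72.6 CPM in MV+ and 78.0, 79.8 and 80.5 CPM in RAG. The libraries were separated, but the log2 fold change of -0.16 ± 0.07 was small and rested on the scaling: it was 0.02 with library totals only, a scaling that moved the median log2 fold change of all genes by 0.18. The call of Slc11a2 was also lost without MV+ replicate 1 (-0.10), MV+ replicate 3 (-0.18) or RAG replicate 1 (-0.17), 2 (-0.16) or 3 (-0.16).

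The exporter went the other way. Slc40a1 (chr1:45964915-45982439), ferroportin, had 7.01, 11.3 and 10.7 CPM in MV+ and 2.44, 3.61 and 3.25 CPM in RAG. It was low in both lines but separated them, with a log2 fold change of 1.65 ± 0.19, or 3.15-fold higher in MV+. The coefficient of variation between its libraries, 24.1% in MV+ and 19.3% in RAG, was large beside that of the ferritin genes (2.87% to 6.17%).

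The 2 iron sensors differed in opposite directions. Ireb2 (chr9:54711562-54760341), which is itself degraded when iron is plentiful, had 226, 261 and 249 CPM in MV+ and 126, 149.5 and 135 CPM in RAG, and its log2 fold change was 0.84 ± 0.08. Aco1 (chr4:40090298-40146042), which is a cytosolic aconitase when it carries an iron-sulfur cluster and binds RNA when it does not, had 124, 133 and 126 CPM in MV+ and 159.6, 153 and 164 CPM in RAG. Its log2 fold change was -0.31 ± 0.06, and the call was lost with library totals only (-0.13) and with limma on FPKM (-0.13). Per length, the Ireb2 level was 1.43 ± 0.0641 times that of Aco1 in MV+ and 0.644 ± 0.0740 times in RAG (SD, n = 3 each), so the sensor with the higher mRNA level was Ireb2 in MV+ and Aco1 in RAG. Per window found once the ratio was 1.41 in MV+ and 0.635 in RAG. This divides the same counts by nearly the same lengths, so it is not a second measure.

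The genes that release stored and heme iron were both lower in MV+. Ncoa4 (chr14:32973078-32992549) had 2.95, 3.33 and 2.69 CPM in MV+ and 28.7, 31.4 and 29.3 CPM in RAG, a log2 fold change of -3.32 ± 0.11, or 9.98-fold lower in MV+, over the 333 windows that were found once. Its size was smaller with limma on log2(FPKM + 1) (-2.22), where the pseudocount is larger than the MV+ values. Hmox1 (chr8:77617517-77624492), heme oxygenase, had 43.9, 42.8 and 41.3 CPM in MV+ and 171, 159.7 and 143 CPM in RAG, and its log2 fold change was -1.89 ± 0.08, or 3.70-fold lower in MV+.

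**Figure D4:**
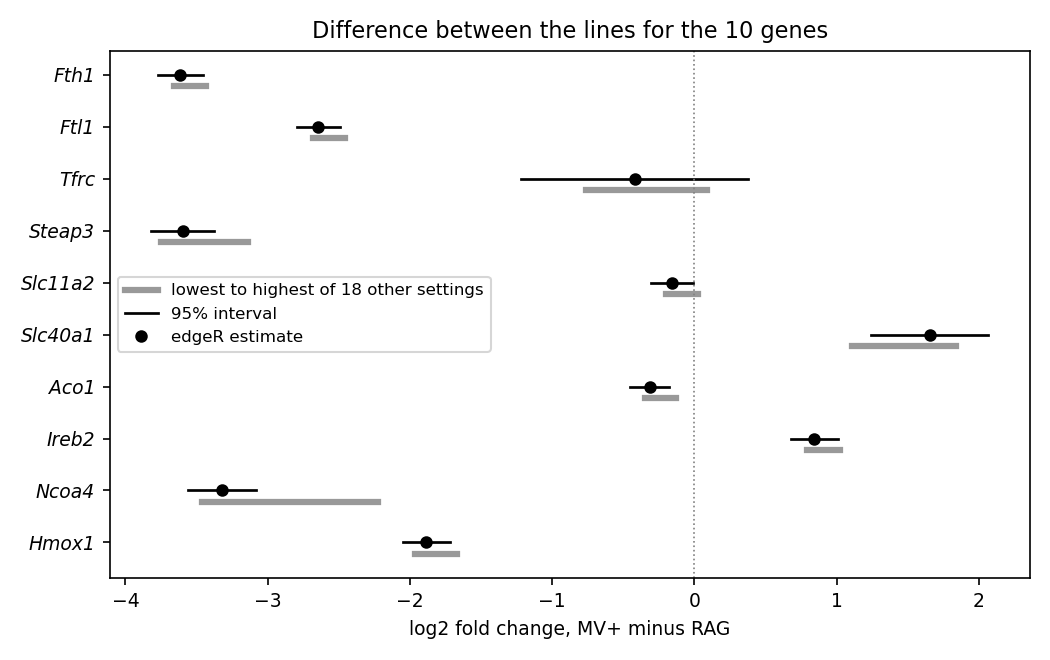
Log2 fold change of each gene, MV+ minus RAG, from edgeR (points) with its 95% interval (thin lines), and below it in grey the lowest to highest value over 18 other settings. The values run between -3.61 (Fth1) and 1.65 (Slc40a1), and the interval of Tfrc and the grey bars of Tfrc and Slc11a2 cross 0.

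Of the 10 genes, 2 were called higher in MV+ (Slc40a1 and Ireb2), 7 were called lower and 1 (Tfrc) was not called, at an adjusted p under 0.05. For comparison, 79.3% of the 12965 tested genes passed this threshold, made up of 40.4% with a higher and 38.9% with a lower level in MV+. The libraries of the lines did not overlap for 9 of the 10 genes, against 80.6% of all genes tested. Since these values chose the genes, nothing is read from the counts. The per-length order in MV+ was Fth1, Ftl1, Tfrc, Ireb2, Aco1, Hmox1, Slc11a2, Steap3, Slc40a1 and Ncoa4, and in RAG it was Fth1, Ftl1, Tfrc, Hmox1, Steap3, Aco1, Ireb2, Slc11a2, Ncoa4 and Slc40a1. Steap3 and Slc40a1 overlapped in MV+ (3.37 to 4.87 and 2.14 to 3.58 FPKM), and Tfrc and Hmox1 overlapped in RAG (91.4 to 116 and 90.3 to 97.3 FPKM), while the other neighbours in each order did not overlap. The places of Ftl1 and Ncoa4 in these orders rest on their exon lengths, most of which could not be counted.

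The genes whose libraries followed the ferritins most closely were found by the root mean square distance of log2(CPM + 1), centred on each gene's mean, over the 6 libraries. For Fth1 these were Hs3st1 (distance 0.0638), Chn2 (0.0656) and Fam176a (0.0744), and for Ftl1 they were 1110007C09Rik (0.0489), Hoxb6 (0.0497) and Tgfa (0.0524). Ftl1 itself stood 311th in likeness to Fth1, at a distance of 0.491. With 2 lines, the distance mostly measures the size of the difference between them on this scale, where the added 1 shrinks differences at low CPM. The genes named for Fth1 were near 0 in MV+ and had larger log2 fold changes than Fth1 (-3.61). Hs3st1 had 0 counts in MV+ and 1101 in RAG, at least 235-fold lower. Chn2 had 26 and 1556 (-5.23 ± 0.17), and Fam176a had 21 and 1545 (-5.52 ± 0.18). Those named for Ftl1 (-2.69, -2.84 and -2.82) lay near its value of -2.64.

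In the wider set of 103 iron genes, 89 were tested, of which 20 were called higher in MV+, 55 lower and 14 were not called. The median log2 fold change of the set was -0.43, against 0.03 over all genes tested, and calls in the higher direction made up 40.4% of all tested genes, calls in the lower direction 38.9%. All adjusted p-values in the following are from edgeR over all genes tested.

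Among 16 genes of the transferrin cycle and other uptake, 12 were tested, of which 1 was higher, 10 were lower and 1 was not called (median -1.38). Lcn2, which binds iron-laden siderophores, had 1 count in MV+ and 22330 in RAG, a ratio of 14272-fold lower in MV+ (95% counting interval 2561 to 563749), whereas Slc22a17, described as its receptor, had 217 counts in MV+ and 1 in RAG (339.5-fold higher, 60.3 to 13471). Each of these genes was thus seen almost wholly in 1 line, and not in the same one. Mfi2, melanotransferrin, had 0 counts in MV+ and 234 in RAG and was at least 49.8-fold lower against 3 counts over the line. Trfr2, the second transferrin receptor, had 4 counts in MV+ and 71 in RAG (log2 fold change -3.42 ± 0.60, adjusted p = 8.9e-05), and Trf, transferrin itself, had 0 in both. Slc39a14, a transporter of iron that is not bound to transferrin, averaged 67.0 ± 1.99 CPM in MV+ and 112 ± 8.45 CPM in RAG (SD, n = 3 each), with a log2 fold change of -0.75 ± 0.07 (adjusted p = 1.1e-07). Steap1 (-1.89 ± 0.07, adjusted p = 9.4e-13) and Steap2 (-1.59 ± 0.06, adjusted p = 2.6e-12), relatives of Steap3 that were named after their values were seen, were lower in MV+ too, whereas Steap4 had 7 counts in MV+ and 1 in RAG, too few for the test (11.0-fold higher, counting interval 1.41 to 494).

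Of 10 ferritin partners and receptors, 7 were tested, with 3 higher, 3 lower and 1 not called. The iron chaperones that load ferritin were slightly higher in MV+, Pcbp1 by 0.19 ± 0.07 (adjusted p = 0.019, a call lost without MV+ replicate 1, at 0.14, or RAG replicate 2, at 0.17) and Pcbp2 by 0.30 ± 0.08 (adjusted p = 0.0032) on the log2 scale. Herc2, the ubiquitin ligase that acts on NCOA4 in human cells, was higher (0.88 ± 0.07, adjusted p = 1.0e-08). Timd2, a receptor for heavy chain ferritin in mice, had 0 counts in MV+ and 83 in RAG, at least 17.7-fold lower, and the autophagy gene Atg5 was lower (-0.90 ± 0.09, adjusted p = 1.2e-07). Scara5, a receptor for light chain ferritin, had 3 counts in MV+ and 39 in RAG, too few for the test (8.31-fold lower, counting interval 2.64 to 42.0).

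Of 11 genes of iron oxidation, export and the hepcidin axis, 5 were tested, with 1 higher and 4 lower. Heph, the membrane ferroxidase that works beside ferroportin, had 2 counts in MV+ and 1896 in RAG, 606-fold lower (counting interval 168 to 5007), in the opposite direction to Slc40a1. Cp, the secreted ferroxidase, averaged 29.8 ± 1.47 CPM in MV+ and 37.5 ± 3.96 CPM in RAG (SD, n = 3 each), with a log2 fold change of -0.32 ± 0.09 (adjusted p = 0.0035) and a call that was lost with library totals only and with limma on FPKM. Bmp6, which induces hepcidin in liver, had 202 counts in MV+ and 9 in RAG (5.08 ± 0.36, adjusted p = 3.3e-09), the hepcidin gene Hamp had 0 in both, and Neo1 was lower (-0.84 ± 0.08, adjusted p = 1.1e-07).

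Of 14 genes that control iron genes, 7 were higher, 5 were lower and 2 were not called. Fbxl5, which targets the Ireb2 protein for degradation, was lower in MV+ (-0.51 ± 0.07, adjusted p = 6.9e-06), the reverse of Ireb2 mRNA. Bach1, the heme-sensitive repressor of Hmox1 and the ferritin genes, averaged 47.7 ± 2.53 CPM in MV+ and 29.9 ± 0.800 CPM in RAG (SD, n = 3 each) and was higher in MV+ (0.67 ± 0.07, adjusted p = 5.5e-07). Nfe2l2, the activator of the same genes, was not called (-0.04 ± 0.08, 95% interval -0.21 to 0.12, adjusted p = 0.61), and Keap1, its inhibitor, was higher (0.29 ± 0.07, adjusted p = 0.0010). Epas1 had 121 counts in MV+ and 0 in RAG, at least 63.1-fold higher, whereas its relative Hif1a was lower (-0.60 ± 0.07, adjusted p = 8.6e-07). Cdc42bpa was higher as well (0.82 ± 0.08, adjusted p = 1.2e-07).

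Of 22 heme genes, 21 were tested, with 5 higher, 13 lower and 3 not called (median -0.29). The largest difference was that of Slc48a1, which moves heme out of lysosomes, with 54.0 ± 3.41 CPM in MV+ and 426 ± 26.5 CPM in RAG (SD, n = 3 each), a log2 fold change of -2.98 ± 0.08 (adjusted p = 1.2e-14). Downstream of Hmox1, Blvrb was lower (-0.90 ± 0.12, adjusted p = 4.7e-06) and Blvra was higher by 0.22 ± 0.10 (adjusted p = 0.044), a call lost in 7 of 18 settings, among them without MV+ replicate 1 (0.18) or 2 (0.20) or RAG replicate 1 (0.22) or 3 (0.15). Hmox2, the constitutive heme oxygenase, was lower (-0.58 ± 0.08, adjusted p = 3.4e-06), as were the ferrochelatase gene Fech (-0.93 ± 0.09, adjusted p = 9.2e-08) and, by less, the heme exporter Flvcr1, listed as Mfsd7b (-0.24 ± 0.08, adjusted p = 0.013, lost in 8 of 18 settings, also without MV+ replicate 1, at -0.19, or RAG replicate 2, at -0.17). Ppox was higher (1.12 ± 0.10, adjusted p = 5.0e-08), as was Alas2 at a low level of 1.23 ± 0.232 CPM in MV+ and 0.443 ± 0.0603 CPM in RAG (1.47 ± 0.27, adjusted p = 0.00012).

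Of 30 genes for mitochondrial iron and iron-sulfur clusters, 3 were higher, 20 were lower and 7 were not called (median -0.81). The most reduced in MV+ were Cisd1, an iron-sulfur protein of the outer mitochondrial membrane, with 38.7 ± 1.55 CPM in MV+ and 114 ± 3.46 CPM in RAG (SD, n = 3 each; -1.57 ± 0.07, adjusted p = 6.8e-12), and Fam96a (-1.55 ± 0.08, adjusted p = 6.4e-11), which serves in the insertion of clusters into Aco1. Cisd3 (1.08 ± 0.10, adjusted p = 7.9e-08) and Nubp1 (0.27 ± 0.07, adjusted p = 0.0025) were higher.

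**Figure D5:**
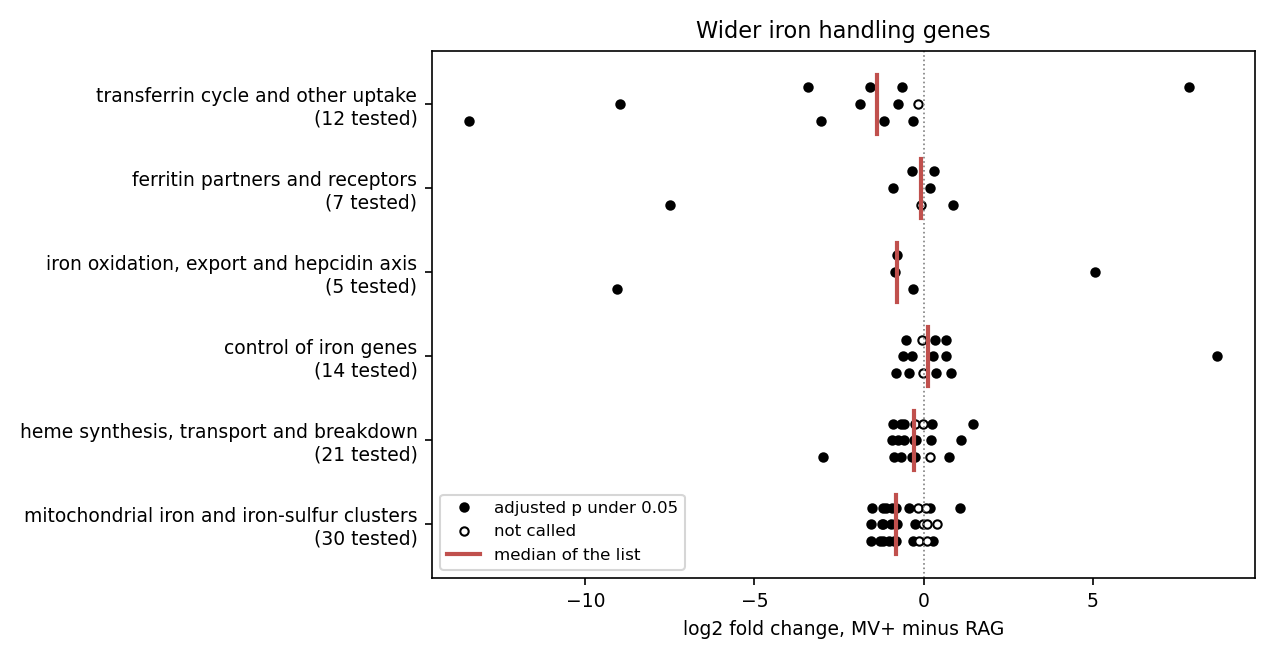
Log2 fold change, MV+ minus RAG, of the 89 tested genes of the wider set (filled points called at an adjusted p under 0.05, open points not called), with the median of each list in red. The medians lie at -1.38 for uptake and -0.81 for mitochondrial iron and iron-sulfur clusters, and at 0.14 for the control genes.

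The nearest tested gene on each side of each member gave 20 neighbours, at distances from 0.1 kb (Best1, beside Fth1) to 4917 kb (3110043O21Rik, beside Aco1). Of these, 9 were called higher in MV+, 9 lower and 2 were not called. Over all genes tested, 79.3% were called, 40.4% higher and 38.9% lower, so nothing is read from these counts. Best1, whose end lies 0.1 kb from that of Fth1 on the opposite strand, had 28 counts in MV+ and 437 in RAG (-3.28 ± 0.28, adjusted p = 3.1e-08), near the value of Fth1. The annotated exons of the genes do not overlap, and whether reads past the annotated end of Fth1 were counted in Best1 was not tested. Next to Ftl1, Gys1 (-0.96 ± 0.08, adjusted p = 1.1e-08) and Bax (-1.21 ± 0.10, adjusted p = 5.4e-08) were lower as well, but by less. Both neighbours of Ncoa4, Timm23 at 0.8 kb (-2.21 ± 0.11, adjusted p = 4.5e-11) and Oxnad1 at 56.7 kb (-2.65 ± 0.07, adjusted p = 1.2e-14), were lower, although 96.0% of the windows of Timm23 also had a copy elsewhere, against 0.0% for Oxnad1. Aco1, lower in MV+, lay 4.8 kb from Ddx58, which was higher (2.44 ± 0.08, adjusted p = 2.7e-13), and Ireb2 lay 4.8 kb from Agphd1, which had 178 counts in MV+ and 4 in RAG (5.98 ± 0.41, adjusted p = 1.9e-09). Steap3, lower in MV+, had En1 as a neighbour at 331 kb, with 920 counts in MV+ and 0 in RAG, at least 480-fold higher. Beside Hmox1, which was lower, Mcm5 (0.32 ± 0.06, adjusted p = 0.00035) and Hmgxb4 (0.74 ± 0.09, adjusted p = 1.2e-06) were higher. Beside Slc11a2, Mettl7a1 (-5.68 ± 0.10, adjusted p = 2.3e-16, with 25.1% of its windows found elsewhere) and Letmd1 (-0.84 ± 0.07, adjusted p = 5.0e-08) were lower. The others spanned -1.04 (Pcyt1a, beside Tfrc) to 0.60 (Incenp, beside Fth1), apart from Crabp1, beside Ireb2, with 120 counts in MV+ and 0 in RAG.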

How the data were processed

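RNA was depleted of ribosomal RNA and sequenced as single reads of 50 nt on an Illumina instrument, from 3 flasks of each line. Per the submitters' processing notes and the file headers, the authors used TopHat2 (version 2) for alignment to mm9, SAMtools 1.6 for the alignment files, and the Subread program featureCounts (1.5.0-p3) for counting, at defaults that leave out reads that align to several places and do not use strand. The deposited counts were raw. From them, exon lengths and library totals, the authors derived the deposited FPKM, which was recomputed here to a relative difference of at most 5.8e-14. The counts were deposited in 2 copies, and 0 cells differed between them.

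The lines were compared by edgeR 4.0.16 (robust quasi-likelihood fit and test, R 4.3.3) after filterByExpr and TMM, with all 6 libraries, no block, two-sided, and Benjamini-Hochberg adjustment at 0.05. The SE is the size of the log2 fold change over the square root of F, and in genes with few counts it can understate counting error. Libraries of 1 line differed by more than sampling noise (chi-square per degree of freedom 8.87 to 92.7). P-values measure the spread between flasks of 1 line each. A floor of 3 counts was between 0.0696 and 0.167 CPM per library, and bounds and exact 95% counting intervals cover counting error only. The steps were tested on simulated data.

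The members, lists and tests were chosen with earlier results of these data known. Genes are named by a rule: the 10 members, up to 2 called genes per direction and sublist of the wider set with the largest log2 fold change, 16 wider genes whatever their values, the nearest tested gene on each side of each member, the 3 genes most like Fth1 and Ftl1, and any other row named as a ferritin chain. One gene that the rule names is not reported here. Same-numbered libraries of the lines deviated together (correlations 0.434, 0.321 and 0.250), although the labels give no shared day. Alternatives were DESeq2 1.42.0, other scalings and filters, Rn45s left out, libraries left out, a replicate block, and limma 3.58.1 on log2(FPKM + 1) or log2(FPKM + 0.1). Windows and hairpins were searched in the mm9 genome and its GENCODE annotation, in Python 3.11.15.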

Additional observations from a re-analysis of the deposited data

How the results depend on the processing

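Over 18 other settings, 7 of the 10 members kept their direction and call. The call of Tfrc appeared without MV+ replicate 3 only. The call of Aco1 was lost in 4 settings and that of Slc11a2 in 15, and the log2 fold change of Slc11a2 had the other sign with library totals only (0.022) and with limma on log2(FPKM + 1) with the count filter (0.018), on log2(FPKM + 0.1) (0.019) and on log2(FPKM + 1) without a filter (0.018), where it was not called. These 4 settings moved the median of all genes by 0.17 to 0.18, and the others by at most 0.08. The calls over all 12965 tested genes moved too, from 5238 higher and 5047 lower in MV+ to 6126 and 3989 with library totals only. They were 5493 higher and 5273 lower with the replicate block. With 1 library left out, 5087 to 5204 genes were called higher and 4868 to 4986 lower. Nothing is therefore read from the counts of listed genes that follow. The members called were 2 higher and 5 to 7 lower in MV+, the wider genes 15 to 25 higher and 42 to 58 lower, and the neighbours 9 to 11 higher and 9 lower. Among the 109 other named or listed genes tested, 79 kept their call and direction in all settings, 30 changed call in some, and 0 reversed with a call. Per window found once, an alternative chosen after seeing the data, the Fth1 to Ftl1 ratio was 0.605 in MV+ and 1.18 in RAG, as more windows of Ftl1 than of Fth1 have copies. With the replicate block, which pairs same-numbered libraries, Uros (-0.25, adjusted p = 0.037), Fdx1l (0.41, 0.037), Fam96b (-0.16, 0.016) and Wdr75 (0.10, 0.049) became called by edgeR, giving 21 higher and 57 lower wider genes and 10 higher neighbours, no other call of a listed gene changed, and the members called stayed at 2 higher and 7 lower.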
